A study of Mus musculus with 15 samples.

Results

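Livers of mice on standard feed were compared with livers of mice on a high-fat, cholesterol-rich diet, whatever else the mice on that diet received by gavage. The comparison set the average of 4 high-fat groups, each with equal weight and 3 RNA sequencing libraries, against 3 control libraries, and so used all 15 libraries of the series, 12 of them high-fat. All mice are labelled wild type (WT), and the groups were fed for 6 weeks. The control group ate standard feed. The model group ate 78.8% standard feed with added fat and sterol, namely lard and egg yolk powder at 10% each, cholesterol at 1%, and the bile salt sodium cholate at 0.2%. The quercetin group received quercetin by oral gavage at 200 mg/kg/day, the myricetin group myricetin at 75 mg/kg/day and the kaempferol group kaempferol at 100 mg/kg/day, 3 plant flavonols, each on a high-fat diet. The composition of the diet in those 3 groups is not stated and was taken to be that of the model. Strain, sex, age, fasting, hour of collection and any gavage of control and model mice are not stated, so a vehicle or handling difference between control and flavonol groups cannot be told apart from diet there. It is also not stated that each library is its own mouse, and p-values therefore describe variation between libraries, which may be technical.

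Library totals ran from 15853767 to 17576502 expected counts, with 14615 to 14929 genes above 0. Albumin, the main hepatocyte product, took 7.27% to 7.81% of the counts in the controls and 4.28% to 7.86% in the high-fat libraries. Hepatocyte genes such as Alb and Hnf4a were high in every library, as the liver label requires. Levels are in CPM, the count relative to the scaled library total. Changes are log2 fold changes of the high-fat average over the control ± SE, where 1 is a doubling. A gene passed when its adjusted p in edgeR's quasi-likelihood test was under 0.05.

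A cell that takes up cholesterol from the diet holds the transcription factor SREBP-2 in the endoplasmic reticulum, and genes of cholesterol synthesis that need it are then transcribed less. Oxidized sterols at the same time activate the nuclear receptor LXR, which raises genes for sterol export into bile and blood, and raises Srebf1. Sodium cholate adds bile acid, which promotes cholesterol uptake from the gut and represses bile acid synthesis in the liver. Diets of this kind are known for fatty liver, high blood cholesterol and liver inflammation in mice.

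Of 12658 genes tested, 2062 passed (16.3%), with 986 higher (7.79%) and 1076 lower (8.5%) in the high-fat average. Among these, 241 rose and 172 fell by at least 1 on the log2 scale. A count with no test looked for genes whose 12 high-fat libraries all lay beyond all 3 controls. It found 483 genes higher (3.82%) and 423 lower (3.34%), or 906 together (7.16%), and 438 and 380 of them also passed. The split depends on scaling, since with plain library totals 666 genes lay higher and 177 lower without overlap. A further test asked which genes differed among the 4 high-fat groups themselves. It called 616 genes (4.87%), of which 194 were also among the 2062, so that 1868 of the 2062 were not shown to depend on what was gavaged. The count of 2062 rested on the controls: without control replicate 2 it fell to 291 higher and 384 lower, and without control replicate 3 to 320 and 405. Whichever library was left out, 475 of the 2062 passed every time.

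Cholesterol synthesis was lower in the high-fat livers. Of 26 enzymes and regulators tested, 22 fell (84.6%, beside 8.5% of all genes tested), none rose and 4 did not pass (Ggps1, Mvk, Sc5d and Stard4). The median change was -1.05 against 0.00028 over all genes tested. The medians in the model, quercetin, myricetin and kaempferol groups were -0.76, -0.61, -1.23 and -1.40. Sqle encodes squalene epoxidase, which makes the first oxygenated intermediate of the sterol pathway (GRCm38.p6 chromosome 15, 59315092 to 59331193). It stood at 50.6, 27.3 and 65.7 CPM in control replicates 1, 2 and 3, and at 0.191, 2.20 and 8.20 CPM in the lowest, median and highest high-fat library. No high-fat library came near a control. The change was -4.28 ± 0.45 (adjusted p = 0.000475), a 19.4-fold lower level.

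Later enzymes of the same pathway fell as well. Tm7sf2, a sterol reductase (chromosome 19, 6062821 to 6067850), was at 147, 118 and 137 CPM in the controls and at 44.3, 54.5 and 74.2 CPM as lowest, median and highest with high fat. These ranges did not meet, and the 4 groups changed by -1.18, -1.13, -1.35 and -1.36, with an average of -1.26 ± 0.12 (adjusted p = 6.43e-05). Cyp51, the sterol demethylase, went from 118, 86.6 and 131 CPM to between 27.1 and 70.0, with a median of 30.5 (-1.69 ± 0.19, adjusted p = 0.000313). Its highest high-fat value, in model replicate 2, was still below the lowest control. Earlier steps outside the rule for named genes, picked after their values were seen, were Mvd and Fdps of the mevalonate pathway, at -2.45 and -2.08, and Hmgcs1, the HMG-CoA synthase, at -1.12. Srebf2, which encodes SREBP-2 itself, went from 52.2, 49.9 and 62.9 CPM to between 29.9 and 41.6, a change of -0.65 ± 0.09 (adjusted p = 0.000475) with no overlap. Model replicate 2 had the highest mean log level of the list among the high-fat libraries, and quercetin replicate 2 the highest summed level, at 2445 CPM beside 2236 in model replicate 2 and 2448 in control replicate 2. In model replicate 2 the mean log2(CPM + 0.5) over the list, relative to all 15 libraries, was 0.45, next to 0.50 in control replicate 2, and all other high-fat libraries lay between -0.71 and 0.26. The number of members that fell was 15 to 23 when single libraries were left out.

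**Figure D1:**
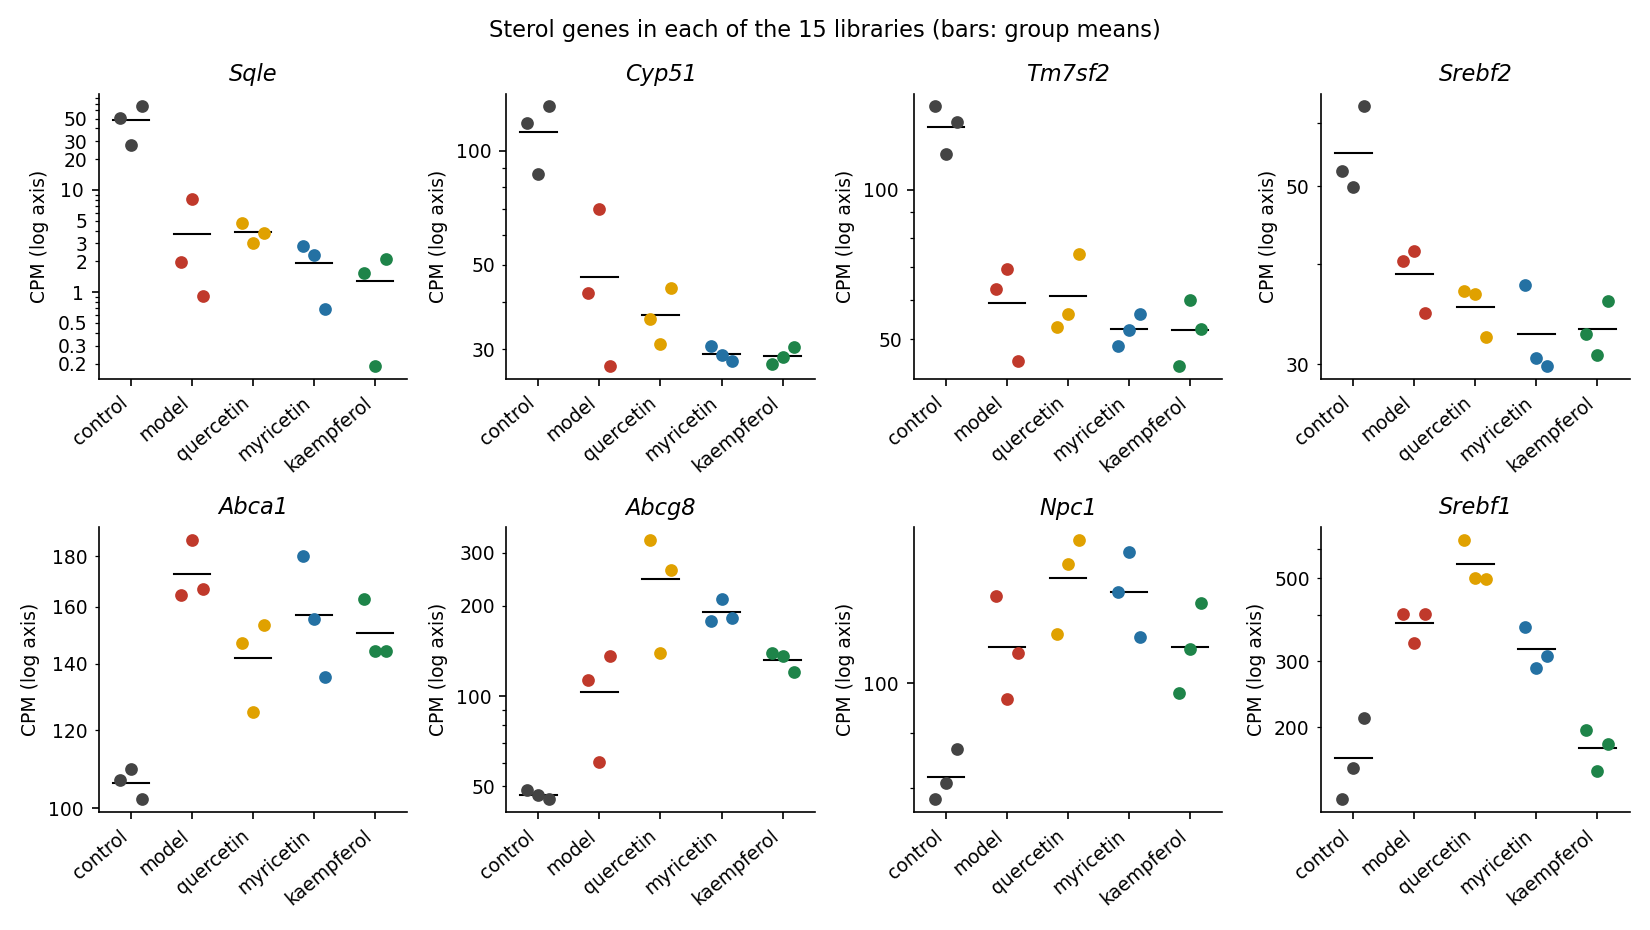
Level of 8 sterol genes in each library, in CPM on a log axis, for the control, model, quercetin, myricetin and kaempferol groups; points are libraries and bars are group means (n = 3). Sqle, Cyp51, Tm7sf2 and Srebf2 lie below all controls in the 12 high-fat libraries, Abca1, Abcg8 and Npc1 lie above all controls, and Srebf1 in the kaempferol group (152 to 196 CPM) lies within the control range of 128 to 211 CPM.

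Genes of sterol export, storage and LXR response moved the other way. Of 14 tested, 8 rose (57.1%), 1 fell (7.14%) and 5 did not pass, with a median of 0.51. Over all genes tested 7.79% rose and 8.5% fell. Abca1, which loads cholesterol onto apolipoprotein A-I, was at 107, 110 and 102 CPM in the controls and at 125, 154 and 187 CPM as lowest, median and highest with high fat. Every high-fat library was above every control, and the change was 0.55 ± 0.09 (adjusted p = 0.00137). Abcg5 and Abcg8 encode both subunits of the transporter that secretes sterols into bile, and are neighbours on chromosome 17. Abcg8 rose from 48.5, 46.8 and 45.4 CPM to between 60.3 and 331, with a median of 139 (1.76 ± 0.26, adjusted p = 0.00145). Abcg5 rose by 1.58 ± 0.30, and only model replicate 2, at 54.7 CPM, fell within the control range of 46.0 to 56.8. The pair was highest with quercetin, at 2.34 for Abcg5 and 2.38 for Abcg8, and lowest in the model, at 0.98 and 1.14, but neither passed the test among the 4 groups.

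Intracellular sterol handling followed. Npc1, which releases cholesterol from lysosomes, went from 78.1, 80.8 and 86.8 CPM to between 96.7 and 136, with no overlap (0.49 ± 0.09, adjusted p = 0.00252). Soat2, which esterifies cholesterol in hepatocytes, rose by 0.52 ± 0.10 (adjusted p = 0.00334) and differed among the high-fat groups, from 0.20 in the model to 0.85 with quercetin. Abcg1, Soat1 and Mylip, also members that passed, rose by 1.08, 1.27 and 0.76. Npc2, the soluble lysosomal partner of Npc1, fell by 0.26, a call that was lost without any 1 of 12 libraries (adjusted p up to 0.154). The receptor gene Nr1h3, which encodes LXR alpha, stood at 0.03 ± 0.08 and did not pass.

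Srebf1, the lipogenic SREBP gene and an LXR target, rose on average but not in every group. The controls held 128, 155 and 211 CPM, and the group means moved by 1.204 for the model, 1.72 for quercetin, 0.97 for myricetin and 0.10 for kaempferol. Libraries of the first 3 groups lay between 288 and 633 CPM, above all controls, while the kaempferol libraries, at 196, 152 and 180 CPM, lay among them. The average was 1.00 ± 0.14 (adjusted p = 0.000502), and the test among the 4 groups also passed (adjusted p = 0.000341).

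In bile acid metabolism the main synthetic enzymes did not pass. Cyp7a1, the rate-limiting enzyme of bile acid synthesis, was at 140 CPM in control replicate 1 but at 27.0 and 24.9 in control replicates 2 and 3, against 41.7, 92.9 and 190 CPM as lowest, median and highest with high fat. The ranges overlapped, and the change of 0.57 had a 95% interval from -0.56 to 1.69. Cyp8b1, which sets the share of cholic acid, changed by -0.51 ± 0.17 (adjusted p = 0.055), with -1.45 in the quercetin group and 0.03 in the model. Of 22 genes of the list 5 rose (22.7%) and 1 fell (4.55%), beside 7.79% and 8.5% of all genes tested, with a median of 0.08. Those that rose encode later steps or export, with Acox2 and Amacr of side chain oxidation at 0.55 and 0.34, Hsd3b7 and Akr1c6 at 0.50 and 0.49, and the canalicular pump gene Abcc2 at 0.40. None of these 5 passed without control replicate 2, and 2 passed without control replicate 3. Akr1d1, the steroid reductase, fell by 0.39, and missed the threshold without control replicate 1 or 2 (adjusted p up to 0.214).

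Fatty acid synthesis genes tended to lower levels with wide spread. Of 20 tested, 1 rose (Srebf1, 5%), 7 fell (35%) and 12 did not pass, with a median of -0.51. Over all genes tested 7.79% rose and 8.5% fell. Me1, the malic enzyme that supplies NADPH, went from 387, 215 and 221 CPM to between 87.3 and 183, below all controls (-1.07 ± 0.23, adjusted p = 0.00869). The 4 groups lay between -1.18 and -0.99. Me1 is also 1 of the 6 genes picked below for a small spread among groups, so this closeness is no result. Fasn, fatty acid synthase, was at 305, 407 and 851 CPM in the controls and at 84.4, 238 and 566 CPM as lowest, median and highest with high fat. The ranges overlapped, the groups differed (-0.48, -0.09, -1.51 and -1.996, adjusted p = 0.0320 among them), and the average of -1.02 ± 0.28 (adjusted p = 0.0292) did not pass without control replicate 2 or 3 (0.0638 and 0.276). Fads1, a fatty acid desaturase, fell by 0.92, and Scd1, the stearoyl-CoA desaturase, differed by -0.07 with a 95% interval from -0.67 to 0.53. The number that fell was 2 without control replicate 1 or control replicate 3, 4 without model replicate 1 or 5, myricetin replicate 5 or 8, or kaempferol replicate 5 or 8, and at most 10.

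Lipid storage gave a mixed picture. Among 17 genes of the lipid droplet, 3 were called higher (17.6%) and 4 lower (23.5%), with a median of 0.16. Over all genes tested these shares were 7.79% and 8.5%. Pparg, a nuclear receptor that drives fat storage, rose from 4.50, 3.80 and 3.35 CPM to between 6.19 and 15.9, above all controls (1.35 ± 0.19, adjusted p = 0.000475). Fitm1, which partitions triglyceride into droplets, rose by 1.39 with no overlap, and Cidec, which fuses droplets, by 1.82 ± 0.56 at levels of at most 3.16 CPM. Plin5, a droplet coat gene, was at 71.4, 88.7 and 69.8 CPM in the controls and between 31.1 and 58.9 with high fat. G0s2, which inhibits adipose triglyceride lipase, went from 206, 187 and 203 CPM to between 28.2 and 159. Both fell without overlap, by 0.79 (adjusted p = 0.000829) and 1.63 (adjusted p = 0.0164). Without control replicate 2, 1 droplet gene rose and 2 fell, and without control replicate 3, 1 rose and 1 fell. Cidec and Fitm1 missed the threshold without either (adjusted p up to 0.197 and 0.0836), as did G0s2 (up to 0.0716), and Cidec also without control replicate 1, model replicate 5, quercetin replicate 8 or myricetin replicate 5 or 8.

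Uptake and oxidation of fatty acids moved little as lists. In uptake and activation, 4 of 16 genes rose (25%) and 1 fell (6.25%), with a median of 0.06. In oxidation 3 of 25 rose (12%) and none fell, with a median of 0.04. Over all genes tested 7.79% rose and 8.5% fell. Lpl, lipoprotein lipase, rose from 13.5, 9.40 and 17.0 CPM to between 23.0 and 74.8, above all controls (1.57 ± 0.33, adjusted p = 0.00908, and 0.0657 without control replicate 2). Fabp2, a fatty acid binding protein, went from 39.9, 41.0 and 37.0 CPM to between 46.3 and 88.9 (0.79 ± 0.14, adjusted p = 0.00261). Cd36, a fatty acid receptor, changed by 1.17 ± 0.39 and missed the threshold (adjusted p = 0.0633). Cpt1a, which admits fatty acids to mitochondria, stood at 0.20 ± 0.10 (adjusted p = 0.153). Mfsd2a, a lysolipid carrier, fell by 2.67, but quercetin stood apart at -0.18 beside -4.59, -2.51 and -3.40 in the model, myricetin and kaempferol groups. In oxidation, Acaa1b, a peroxisomal thiolase, Vnn1, a pantetheinase, and Bdh1, a ketone body enzyme, rose by 0.74, 1.43 and 0.35, each above all controls. Vnn1 missed the threshold without control replicate 3 (adjusted p = 0.0525). Without control replicate 2 or 3, 1 and 2 uptake genes rose.

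Among glucose and insulin genes a few had large changes. Of 20 tested, 3 rose (15%), 4 fell (20%) and 13 did not pass, with a median of -0.04. The shares over all genes tested were 7.79% and 8.5%. Igfbp1, a secreted binding protein that insulin represses, stood at 5.58, 9.34 and 4.04 CPM in the controls and at 28.2, 49.7 and 102 CPM as lowest, median and highest with high fat. All 12 lay above the controls, and the change was 3.15 ± 0.53 (adjusted p = 0.00344), with 3.22, 3.07, 2.66 and 3.67 in the model, quercetin, myricetin and kaempferol groups. Irs2, an insulin receptor substrate, rose by 1.35 ± 0.27, although myricetin replicate 8, at 6.15 CPM, lay under the control values of 8.94, 8.24 and 8.76.

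The other members named from this list were a set of genes that fell and G6pc. Ppp1r3b, which targets a phosphatase to glycogen, went from 755, 700 and 683 CPM to between 114 and 353 (-1.64 ± 0.22, adjusted p = 0.000777). Angptl8, a hormone of the fed state, went from 253, 262 and 373 CPM to between 13.9 and 222 (-2.47 ± 0.38, adjusted p = 0.00239). In both genes no high-fat library reached a control. Ppp1r3g, a glycogen-targeting relative of Ppp1r3b, fell by 2.87 with overlap, and not without control replicate 1 (adjusted p = 0.0907). G6pc, which releases glucose from the liver, rose by 0.87 with overlap, and did not pass without control replicate 2 or 3 (adjusted p = 0.118 and 0.139).

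Genes of the endoplasmic reticulum stress response were lower with high fat. Unfolded protein in that compartment activates ATF6 and related sensors, which raise chaperones such as Hspa5 (BiP), and, through ATF4, the transcription factor Ddit3 (CHOP). Of 19 genes tested, 12 fell (63.2%), 1 rose (5.26%) and 6 did not pass, with a median of -0.84. Over all genes tested 8.5% fell and 7.79% rose. The group medians were -0.59, -1.02, -0.93 and -0.97 for model, quercetin, myricetin and kaempferol. The control libraries differed widely in these genes. Relative to all libraries, the list's mean log2(CPM + 0.5) was 0.06 in control replicate 1, 0.73 in control replicate 2 and 0.97 in control replicate 3, and between -0.50 and 0.10 in the high-fat libraries. Control replicate 1 thus lay within the high-fat range.

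Ddit3 (chromosome 10, 127290793 to 127296291) stood at 17.0, 41.5 and 58.7 CPM in control replicates 1, 2 and 3 and at 4.39, 7.58 and 11.4 CPM as lowest, median and highest with high fat. It was lower in all 12 than in any control, by -2.37 ± 0.25 (adjusted p = 0.000298), and passed whichever library was left out. Hspa5, named here for its promoter, ranged over 957 to 2692 CPM in the controls and 452 to 1303 CPM with high fat, with overlap (-1.40 ± 0.25, adjusted p = 0.00378). Hsp90b1 and Dnajc3, chaperone genes of the same compartment, fell by 0.84 and 0.64, and passed in each leave-out. Creld2, Sdf2l1 and Herpud1, other members that passed, fell by 2.21, 1.43 and 1.59. Chac1, a glutathione-degrading enzyme downstream of ATF4, was the member that rose, by 1.60 (adjusted p = 0.0498), a call lost without any control library and without 8 high-fat ones (adjusted p up to 0.217). The count that fell was 10 without control replicate 2, 9 without control replicate 3 and 13 without control replicate 1.

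Members with the binding element of ATF6 in their promoters were among those that fell. The ER stress response element, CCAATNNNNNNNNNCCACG on either strand, was searched in the 250 bases before the start in the RefSeq promoter table of GRCm38.p6. It occurred in 5 of 18 ER stress members with a window (27.8%), against 19 of 10173 tested genes (0.187%) and 37 of all 32851 windows (0.113%). The 5 genes, Hspa5, Hsp90b1, Pdia6, Dnajc3 and Creld2, all passed as lower. The list gathers genes of this stress response, so its share may reflect how members were chosen and is no result about diet. These 5 are among the 11 of 865 genes that passed lower and hold the element (1.27%). The element was in 0 of 781 genes that passed higher, where few are expected at 0.187%. The matches are shown 5′ to 3′ on the strand of the gene with 15 bases on either side, and capitals mark the element, which reads CGTGG to ATTGG where it lies on the opposite strand. The stretches lie at chr2:34772010-34772058 for Hspa5, chr14:118937812-118937860 for Dnajc3, chr12:17266476-17266524 for Pdia6 and chr15:88819505-88819553 for Creld2, all on the + strand, and at chr10:86705518-86705671 on the - strand for Hsp90b1, which holds 2 elements. The genes share the outer letters and differ in the 9 bases between.
Hspa5: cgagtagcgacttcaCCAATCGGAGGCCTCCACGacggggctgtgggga
Dnajc3: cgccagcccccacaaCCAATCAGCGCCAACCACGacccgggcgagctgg
Pdia6: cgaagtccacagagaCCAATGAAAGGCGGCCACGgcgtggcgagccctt
Creld2: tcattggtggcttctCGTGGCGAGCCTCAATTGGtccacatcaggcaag
Hsp90b1: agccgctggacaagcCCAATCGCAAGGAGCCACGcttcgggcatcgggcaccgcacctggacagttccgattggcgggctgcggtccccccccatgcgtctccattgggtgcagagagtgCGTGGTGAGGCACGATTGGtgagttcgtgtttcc
A match describes these letters and is not evidence of binding. The sterol regulatory element TCACNCCAC, on either strand, was in 1 of 18 cholesterol synthesis members with a window, Hmgcs1, and in 1.26% of tested genes. It was likewise in 1 of 18 ER stress members, Hsp90b1, so it was not particular to the sterol list. Of the 61 tested members of the cholesterol, ER stress and heat shock lists, 12 had no window. The Hmgcs1 match is shown in the same way (chr13:119690199-119690237, + strand) because SREBP-2 acts through such elements.
Hmgcs1: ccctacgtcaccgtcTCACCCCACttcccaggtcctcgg

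Heat shock chaperones, which refold damaged protein, fell as a list too. Of 16 tested, 14 fell (87.5%, beside 8.5% of all genes tested) and 2 did not pass, with a median of -0.97. Dnajb1, a co-chaperone of HSP70, was at 34.1, 70.1 and 72.7 CPM in control replicates 1, 2 and 3 and at 16.3, 22.7 and 32.2 CPM as lowest, median and highest with high fat. All 12 lay below the controls, with replicate 1 closest (-1.38 ± 0.21, adjusted p = 0.00137). Hspa4l, an HSP110 family member, went from 24.8, 44.4 and 38.1 CPM to between 10.6 and 24.7 (-1.09 ± 0.12, adjusted p = 0.000114), and differed among the high-fat groups, from -0.62 in the model to -1.58 with quercetin. The inducible HSP70 genes Hspa1a and Hspa1b, near-identical copies whose reads cannot be assigned with certainty, fell by 3.25 and 3.09 with overlap. Control replicate 1 again lay with the high-fat libraries. The list's score was 0.08 there, 1.27 and 1.15 in control replicates 2 and 3, and -0.57 to 0.28 with high fat. Without control replicate 2, 9 members fell, and without control replicate 3, 8. In addition, 4 of 16 immediate early genes fell (25%, beside 8.5% of all genes tested), among them Jun at -1.02 and Atf3 at -1.56. Without control replicate 2 this count was 2 and without control replicate 3 it was 0.

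The 2 heat shock genes that did not pass were the mitochondrial chaperonin pair Hspd1 and Hspe1, at -0.06 ± 0.11 and -0.09 ± 0.12. They share 1 promoter, read in opposite directions, and were the members of this list in whose windows the heat shock element GAANNTTCNNGAA was found (2 of 13 members with a window, against 0.423% of tested genes). Outside this list, genes that fell did hold the element. It was in 7 of 865 genes that passed lower (0.809%) and in 0 of 781 that passed higher, where few are expected at 0.423%. The shared stretch (chr1:55088044-55088091) is shown on the + strand, that of Hspe1, with the overlapping matches of both strands in capitals, because these genes did not pass while the rest of the list fell.
Hspe1: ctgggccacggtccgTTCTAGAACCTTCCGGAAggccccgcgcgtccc

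**Figure D2:**
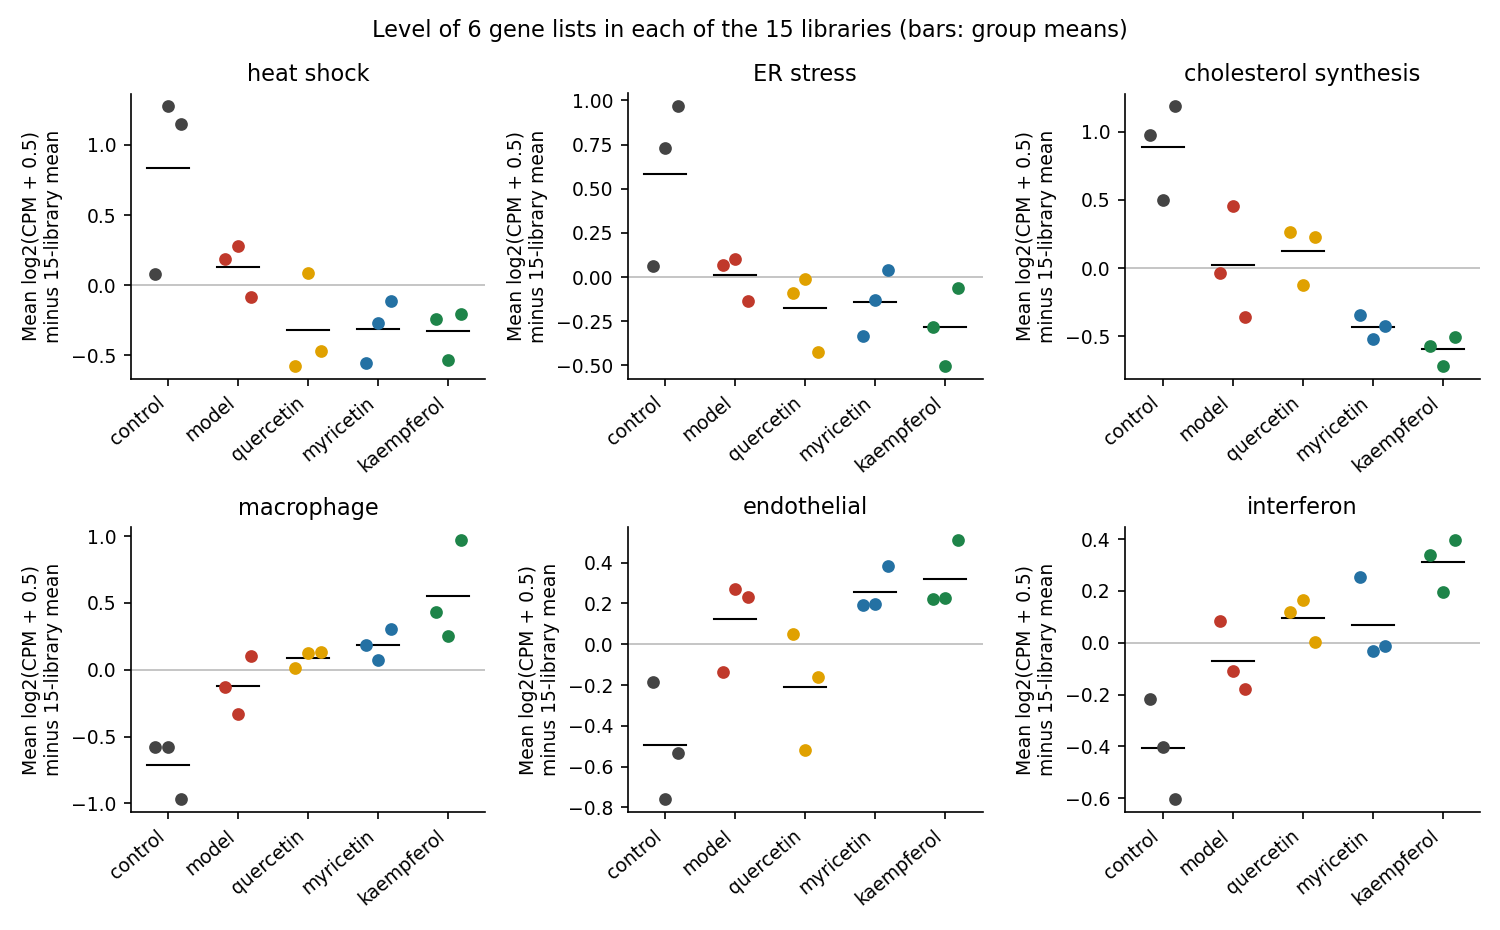
Mean log2(CPM + 0.5) of 6 gene lists in each library minus the mean over the 15 libraries, by group; points are libraries and bars are group means (n = 3). Control replicate 1 lies within the high-fat range for heat shock (0.08) and ER stress (0.06), and all 3 controls lie below all 12 high-fat libraries for macrophage and interferon genes.

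Markers of macrophages and Kupffer cells, the resident macrophages of liver, were higher with high fat. Of 25 tested, 15 rose (60%), none fell and 10 did not pass, with a median of 1.00, and 12 of the 15 had no overlap with the controls. Over all genes tested 7.79% rose, and 3.82% lay higher without overlap. In whole liver, more cells of a type and more RNA per cell cannot be told apart. Clec4f, a lectin of Kupffer cells, was at 41.3, 58.3 and 32.6 CPM in the controls and at 70.5, 89.7 and 121 CPM as lowest, median and highest with high fat (1.09 ± 0.15, adjusted p = 0.000475). Cd68, a lysosomal protein of macrophages, went from 3.17, 3.80 and 2.24 CPM to between 4.48 and 11.01 (1.31 ± 0.18, adjusted p = 0.000475). Mrc1, the mannose receptor of macrophages and sinusoidal endothelium, rose by 1.15 ± 0.15 (adjusted p = 0.000365). These 3 genes lay above every control in every high-fat library and passed in each leave-out. The complement genes C1qa, C1qb and C1qc, all expressed by macrophages, rose by 0.92, 1.10 and 1.16. Monocyte genes such as Ccr2 and Ly6c2 did not pass, at 0.53 ± 0.36 and 0.38 ± 0.37.

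Kaempferol replicate 8 stood apart in these genes. It held 63.6 CPM of Adgre1, the F4/80 antigen, where the other high-fat libraries held 8.66 to 17.7 and the controls 4.82, 5.28 and 2.48, and 295 CPM of Cd5l, an LXR target of Kupffer cells, where the next highest held 106. With that library Adgre1 changed by 1.77 ± 0.50 (adjusted p = 0.0345) and Cd5l by 1.82 ± 0.37 (adjusted p = 0.00825). Without it they changed by 1.50 (adjusted p = 0.000536) and 1.63 (adjusted p = 0.000414), and 14 macrophage genes rose. Adgre1 did not pass without control replicate 1, 2 or 3 (adjusted p = 0.0758, 0.108 and 0.157), nor without model replicate 1 or 5 or quercetin replicate 8, and Cd5l did not pass without control replicate 3 (adjusted p = 0.0573). Without control replicate 3, 8 macrophage genes rose, and without control replicate 2, 10.

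Endothelial genes rose as well. Of 18 tested, 13 rose (72.2%, beside 7.79% of all genes tested) and none fell. The median was 0.72, with group medians of 0.66, 0.38, 0.92 and 0.90 for model, quercetin, myricetin and kaempferol. Stab2, a scavenger receptor of liver sinusoids, went from 31.1, 21.3 and 19.9 CPM to 31.8, 48.6 and 61.4 CPM as lowest, median and highest (0.94 ± 0.14, adjusted p = 0.000596). Cdh5, the endothelial cadherin, went from 11.3, 7.73 and 7.70 CPM to between 11.8 and 32.8 (1.09 ± 0.17, adjusted p = 0.000866). Both lay above the controls, by a small margin over control replicate 1. Over the list quercetin replicate 5 scored -0.52, within the control range of -0.76 to -0.19. The count that rose was 4 without control replicate 2 and 5 without control replicate 3.

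Lymphocyte markers were at low levels, and 6 of 14 rose (42.9%, beside 7.79% of all genes tested) with a median of 0.93. They include Cd79a and Cd79b of the B cell receptor, at 1.94 and 2.16, and Gzmb, a granzyme, at 1.02. None passed without control replicate 2 or without control replicate 3, and 8 rose without control replicate 1. Interferon-stimulated genes gave 13 that rose (59.1%) and 1 that fell (4.55%) of 22, beside 7.79% and 8.5% of all genes tested. Their median was 0.58. Ifi44, an interferon-induced gene, went from 2.16, 1.35 and 1.304 CPM to between 2.31 and 6.59, with no overlap (1.28 ± 0.25, adjusted p = 0.00335). Ddx58, a sensor of viral RNA, rose by 0.64, also without overlap. Stat2, a signal transducer of type I interferon, fell by 0.52. Isg15 differed among the groups, at 0.08 in the model and 0.98, 0.70 and 0.71 with quercetin, myricetin and kaempferol. Without control replicate 2 or 3, 5 and 4 interferon genes rose.

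Hepatocyte genes were lower in a few members. Of 19 tested 4 fell (21.1%, beside 8.5% of all genes tested), each below all controls in every high-fat library on the TMM scale. None rose, and the median was -0.21. As a share of plain counts, albumin was higher in quercetin replicate 2 (7.86%) than in any control. Hnf4a, a master transcription factor of hepatocytes, was at 864, 1154 and 843 CPM in the controls and at 461, 540 and 693 CPM as lowest, median and highest with high fat (-0.79 ± 0.11, adjusted p = 0.000475). Foxa3, another hepatocyte factor, fell by 0.98 ± 0.14 and Alb by 0.52. Without control replicate 2, 2 members fell (adjusted p = 0.0794 for Alb). The summed level of the list was 100554 to 115233 CPM in the controls and 64802 to 102888 CPM with high fat, and that of the macrophage list 271 to 363 and 446 to 1344 CPM. The summed hepatocyte level of quercetin replicate 2 lay within the control range, while the macrophage sums did not overlap. The part of cell composition in the other lists was not tested.

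Other cell type lists differed little or rested on few genes. Of 18 stellate cell and matrix genes 1 rose (Tgfb1 at 0.65) and 1 fell (Lum at -0.65). Each is 5.56%, beside 7.79% and 8.5% of all genes tested. Neither passed without any 1 of the controls (adjusted p up to 0.118 and 0.161), nor Lum without model replicate 1 or 5. Of 5 adipocyte genes tested 3 rose, Car3, Cidec and Fabp4, and the defining genes Adipoq, Retn and Plin1 were at 0 in 13, 14 and 14 of 15 libraries and at most at 0.116 CPM. Car3, a carbonic anhydrase that hepatocytes also express, carried the list, with 1874, 1217 and 1265 CPM in the controls and 1995 to 4859 CPM with high fat, above all controls (1.07 ± 0.20, adjusted p = 0.00306). Without any 1 control library, 1 adipocyte gene rose, as it did without quercetin replicate 8 or myricetin replicate 5 or 8. Fabp4 missed the threshold under 20 of the alternatives, among them leaving out any 1 control (adjusted p up to 0.295). The neutrophil, bile duct and pancreas lists had 1 passing gene each among 5, 9 and 2 tested (S100a9, Sox9 and Cela2a, at 1.15, -1.22 and -1.23), and each of these calls was lost without control replicate 3 (adjusted p = 0.212, 0.0513 and 0.224). S100a9 was lost without any 1 of 10 libraries, the controls among them. None of 6 erythrocyte genes and 1 muscle gene passed. In all, 43 list entries were below the filter on low counts, with levels of at most 5.22 CPM.

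Several lists showed no passing gene. None of 22 acute phase genes, 20 NRF2 antioxidant genes and 19 xenobiotic P450 genes passed, with medians of 0.03, 0.10 and 0.04. The smallest adjusted p-values in them were 0.0566 for Orm3, an acute phase glycoprotein, 0.0755 for Gpx4, a lipid peroxidase, and 0.1002 for Cyp3a13. Of 30 ribosomal protein genes 2 fell (6.67%, beside 8.5% of all genes tested), Rpl14 and Rps16, both by 0.31, with a median of -0.20. That count was 0 without control replicate 2 or 3, 4 without quercetin replicate 8 or kaempferol replicate 5, and 9 without myricetin replicate 8. Of 18 apolipoprotein and lipoprotein genes 3 fell (16.7%, beside 8.5% of all genes tested), among them Apoa4 by 0.69 and the endothelial lipase gene Lipg by 1.78. The count was 1, 1 and 0 without control replicates 1, 2 and 3, and 1 without myricetin replicate 7 or kaempferol replicate 8. In the triglyceride synthesis list 1 of 9 genes fell (11.1%, beside 8.5% of all genes tested), Lpin1, a phosphatidate phosphatase, by 1.49. It did not pass without control replicate 2 (adjusted p = 0.161), and quercetin stood at -0.10 where the other groups ranged from -2.30 to -1.52. Of 18 sex-biased liver genes 1 rose and 2 fell, of 15 cell cycle genes 1 fell (Cdkn1a), and of 15 zonation genes 1 rose (Lgr5, 1.25) and 1 fell (Tbx3, -0.66), shares near those over all genes. Cdkn1a passed under every alternative in which genes were tested, while the other calls were easily lost. The sex-biased count that fell was 1 without any 1 of the 3 controls, model replicates 1 and 5, quercetin replicate 2, myricetin replicates 5 and 8 or kaempferol replicates 3 and 8. The count that rose was 0 without control replicate 2 or 3, model replicate 2, myricetin replicate 5 or 8 or kaempferol replicate 5. Lgr5 did not pass without control replicate 1 or 2, nor Tbx3 without control replicate 1 or 3, model replicate 5, quercetin replicate 8 or myricetin replicate 5 or 8 (adjusted p up to 0.148 and 0.184).

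**Figure D3:**
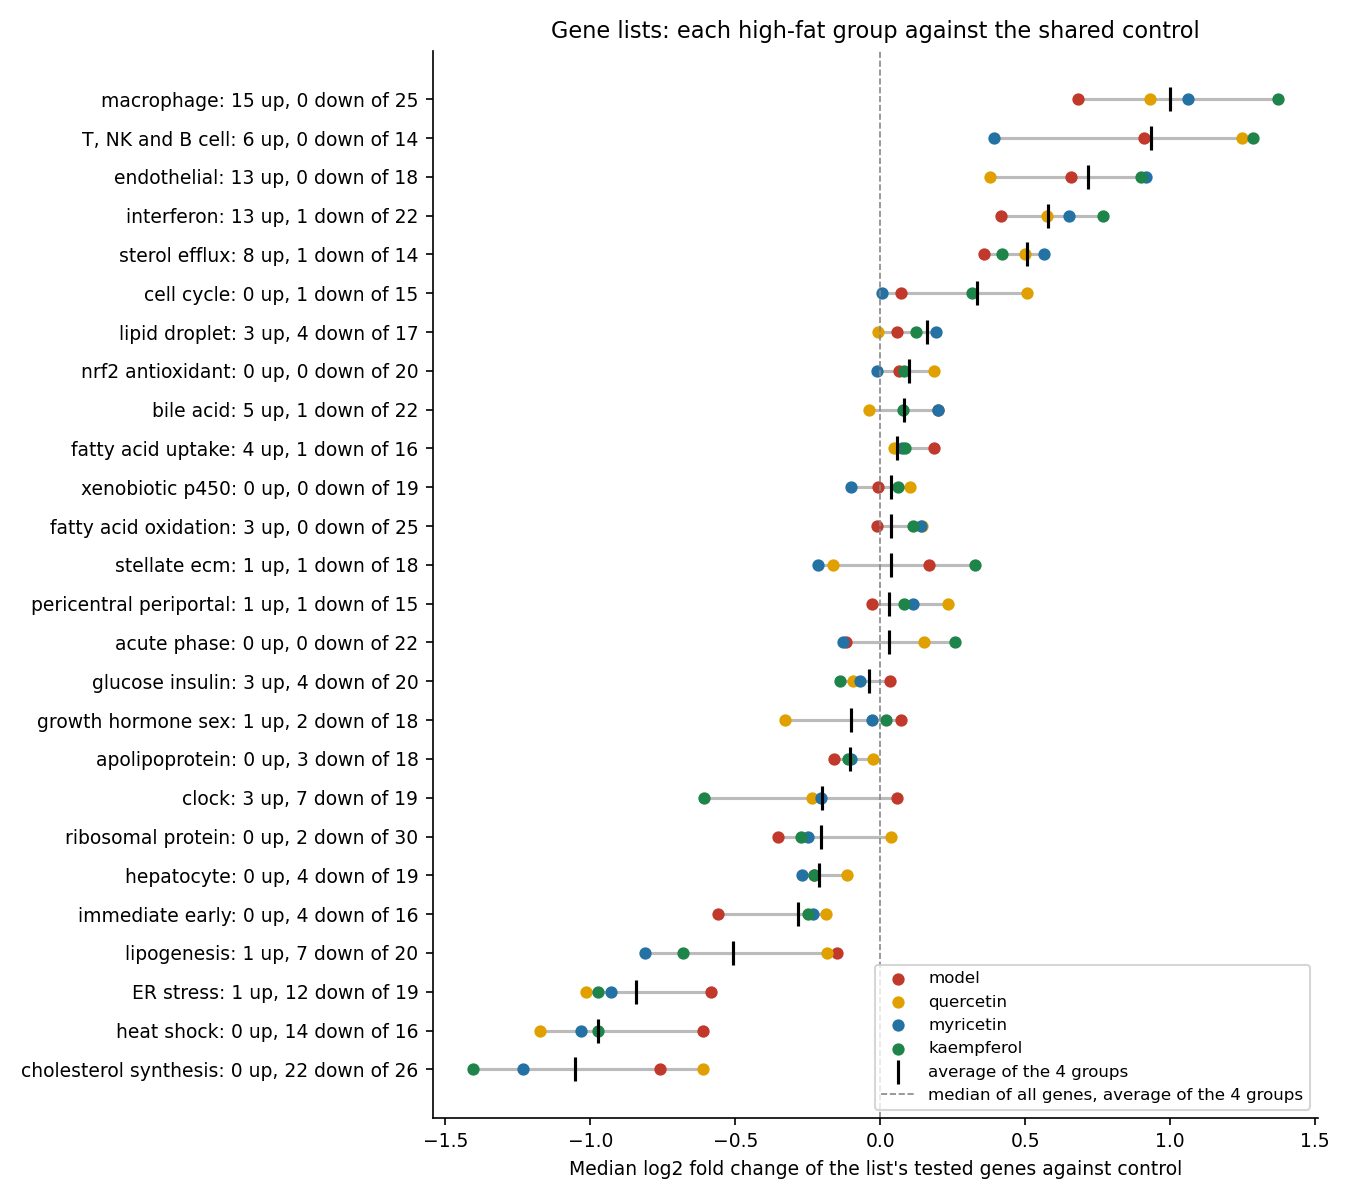
Median log2 fold change of each list with at least 10 tested genes, against the shared control, in the 4 high-fat groups (coloured points) and their average (black tick), with the counts that passed. Macrophage (1.00), lymphocyte (0.93) and endothelial (0.72) lists stand highest and cholesterol synthesis (-1.05), heat shock (-0.97) and ER stress (-0.84) lowest; the 4 groups share the 3 controls, so their positions are not independent.

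The largest changes without overlap, at a mean of at least 5 CPM in the higher group, included genes outside these lists. Adam11, a membrane protein of the ADAM family (chromosome 11, 102761413 to 102780263), was at 11.5, 10.9 and 7.64 CPM in the controls and at 36.1 to 128 CPM with high fat, a 7.11-fold higher level (2.83 ± 0.37, adjusted p = 0.000829). Depp1, a target of FOXO factors, went from 13.3, 12.4 and 12.8 CPM to between 28.7 and 129 (2.40 ± 0.43, adjusted p = 0.00456). Tpm2, a tropomyosin, and Clstn3, a calsyntenin, rose by 1.57 and 1.80, and Bmf, a pro-apoptotic factor, by 1.78. None of the high-fat libraries of these 5 genes reached down to a control.

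At the low end stood Zbtb16, a zinc finger transcription factor, with 77.6, 122 and 83.1 CPM in the controls and 11.4 to 47.3 CPM with high fat (-2.19 ± 0.19, adjusted p = 9.91e-05). The decrease was smaller with quercetin (-1.38) than in the model (-2.67), and the groups differed (adjusted p = 0.0231). Cdkn1a, the cell cycle inhibitor p21, went from 40.5, 39.4 and 31.8 CPM to between 1.11 and 20.9 (-2.40 ± 0.19, adjusted p = 5.75e-05). It was lowest with quercetin, at 2.83, 1.22 and 1.11 CPM. Id1, a target of BMP signalling, fell by 2.14, and the histone gene H3c14 by 2.62, with 2 quercetin libraries at 0. Ugt1a9 and Ugt1a5, which share exons so that their reads cannot be fully separated, fell by 1.89 and 1.76. Mroh6 fell by 2.10.

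Some genes had nearly the same change in all 4 groups. They were picked, among genes with no overlap and a change of at least 1, for the smallest spread of the 4 values relative to their average, so that closeness is the rule and no result. Tmem50b, a small membrane protein (chromosome 16, 91574508 to 91597680), changed by -1.10, -1.17, -1.18 and -1.16, from 11.5, 14.4 and 14.97 CPM to between 4.90 and 6.88. Nmnat3, a mitochondrial enzyme of NAD synthesis, changed by 1.54, 1.44, 1.66 and 1.52, and Tnfsf10, the death ligand TRAIL, by 1.04, 1.13, 1.24 and 1.22. Me1, Gys1, the muscle-type glycogen synthase, and Tmem106a completed the 6. Of the 6, Me1 missed the threshold without control replicate 1 (adjusted p = 0.0517) and Gys1 without control replicate 2 (0.0530).

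For other genes the average did not stand for each group. Of the 2062 genes that passed in the high-fat average 9.41% differed among the high-fat groups, against 3.98% of the other genes. Circadian clock genes were the list with the most, since 15 of 19 passed the test among groups, beside 4.87% of all genes tested. In the diet average 10 passed, 3 higher (15.8%) and 7 lower (36.8%), beside 7.79% and 8.5% of all genes tested. Of these 10, 8 also differed among the groups. The list's median stood at 0.06 for model, -0.24 for quercetin, -0.21 for myricetin and -0.61 for kaempferol. The count of 10 was thus not shown to be a response common to all 4 groups. Dbp, a clock output factor, stood at 2.66, 2.83 and 1.80 CPM in the controls, 2.20, 2.79 and 3.03 in the model, 141, 163 and 126 with quercetin, 5.55, 19.8 and 25.2 with myricetin and 1.49, 1.27 and 1.99 with kaempferol. The average of 2.05 (adjusted p = 0.00829) thus came from the quercetin and myricetin libraries. Cry1, a clock repressor, changed by 0.04, -2.79, -1.76 and -0.85 in the model, quercetin, myricetin and kaempferol groups. In Clpx, a mitochondrial protease subunit, Lrfn3 and Lgalsl the model stood at 0.03, 0.19 and 0.04 and quercetin at -2.02, -2.13 and -2.001. The hour of collection was not stated. With control replicate 2 or 3 left out, 4 clock genes fell. Without any 1 control Clpx and Lrfn3 missed the threshold (adjusted p up to 0.0824 and 0.155), and Dbp missed it without control replicate 3 (0.0563).

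**Figure D4:**
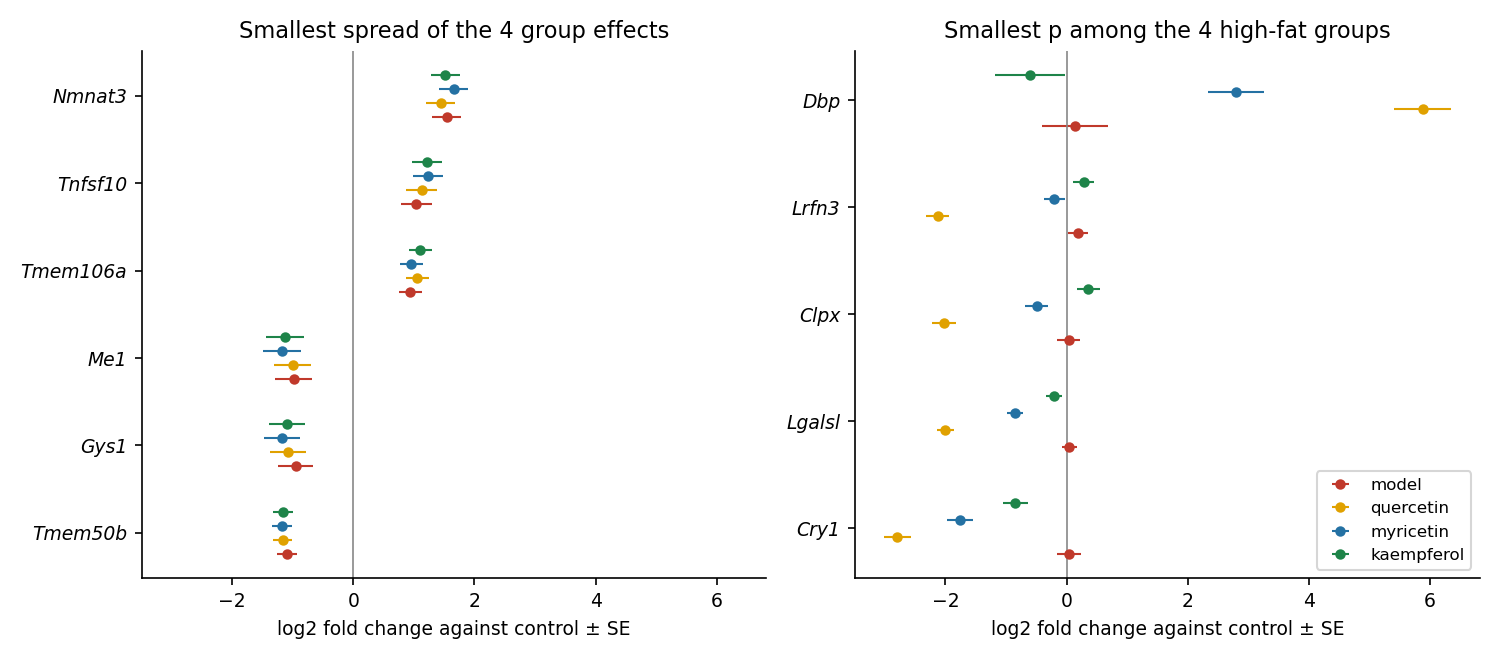
Log2 fold change against control ± SE in the 4 high-fat groups, for the 6 genes with the smallest relative spread among groups (left). On the right are 5 of the genes with the smallest p among groups, out of those that passed in the high-fat average. Each set was chosen by its rule. On the left all 4 groups lie together, as for Tmem50b between -1.18 and -1.10, and on the right the model lies within 0.19 of the control while quercetin ranges from -2.79 to 5.88.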

How the data were processed

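Liver RNA of 5 groups of 3 libraries was analysed. The submitters' processing notes name HISAT2 2.1.0, Bowtie2 2.3.4.3, RSEM 1.3.1, DESeq2 1.4.5 and the genome build GRCm38.p6, without saying what each did. The table deposited by the authors holds, per the file headers, an expected count for each of 16809 genes in each library, not normalized. Of these values 5.37% are not whole, and all were rounded. The 30 FPKM and TPM columns, 15 columns of group averages and 12 columns of the authors' comparisons were not used. Strand and handling of shared reads are not given in the sources used here, so overlapping or near-identical genes are uncertain.

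After filterByExpr, 12658 genes were scaled by TMM and fitted with edgeR 4.0.16 in R 4.3.3 (robust quasi-likelihood, all 15 libraries, 1 mean per group, 10 residual degrees of freedom). The contrast was the mean of the 4 high-fat coefficients minus the control, 2-sided, with Benjamini-Hochberg adjustment over all genes. An F test with 3 degrees of freedom compared the high-fat groups. The SE of a change is its size over the root of its F statistic. The common biological coefficient of variation was 0.155, and the median 95% interval reached 0.271 to either side. The script was tested on simulated data.

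The 33 gene lists and the rules for genes were chosen with earlier results of these data known, and lists were described without a test. Named genes were 20 fixed genes, the 10 highest and 10 lowest changes without overlap at 5 CPM or more, up to 4 passing members per list and direction by p (or 2 where none passed), and 6 genes each by smallest spread and by F test. The rules by size skipped uncharacterized symbols (Gm, LOC or Rik names). Other list members named in the text, such as Abcg1, Mylip, Abcc2, Hspa5, Creld2, Hspa1a, C1qa, Ccr2, Hspd1 and Hspe1, were chosen after their values were seen. Some genes the rule takes are not reported here. Alternatives were scaling, the filter, DESeq2 1.42.0, the 12 libraries as 1 group, a replicate block, and leaving out each group or library. List counts without single libraries or under other fits were added after seeing the data.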

Additional observations from a re-analysis of the deposited data

Results flagged for a closer look

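The 4 high-fat groups differed in 20 genes reported here, by the F test on the difference itself, whose adjusted p-values follow. Clock genes were the most numerous, with Dbp and Cry1 each at 3.93e-05, Arntl at 5.16e-05, Nr1d1 at 0.000341, Nr1d2 at 0.000935 and Per2 at 0.0162. In Arntl quercetin stood at -3.32 against the control and the other groups between -0.60 and 0.11. Nr1d1 stood at 5.27 with quercetin, 5.00 with myricetin, 2.63 with kaempferol and 0.97 in the model, while Per2 was lowest with kaempferol at -4.03.

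Lowest with quercetin were Lgalsl (5.27e-06), Lrfn3 (3.10e-05), Clpx (4.76e-05), Cdkn1a (0.000471) and Hspa4l (0.0103), and Zbtb16 (0.0231) was highest there among the high-fat groups. Lipid genes were Srebf1 (0.000341), Soat2 (0.0198), Akr1d1 (0.0312), Fasn (0.0320) and Mfsd2a (0.0341). Isg15 (0.00778), Irs2 (0.0367) and Rps16 (0.0265) completed the set. Irs2 was highest in the model, at 1.98 against the control, and Rps16 stood at 0.03 with quercetin and between -0.51 and -0.33 in the other groups.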

How the results depend on the processing

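Only 3 control libraries bear every diet comparison, and depth of 15853767 to 17576502 counts limits genes of few counts. Leaving out single libraries gave 291 to 1015 genes higher, 384 to 1171 lower and 347 to 702 that differed among the high-fat groups (347, 355 and 409 without model replicates 1, 2 and 5, and 375 without quercetin replicate 5). Treating the 12 high-fat libraries as 1 group gave 654 higher and 687 lower. DESeq2 called 2295 genes, 2012 of them shared in the same direction, and 1291 among the groups. In edgeR the number that differed among groups was 616 with all 4 and 41 without the quercetin group. With plain library totals 666 genes lay higher and 177 lower without overlap, and the median log2 ratio of all genes moved from 0.0084 to 0.072. Correlation of deviations from group means gave no sign that library numbers pair libraries, but it cannot exclude a shared litter, cage or day. Of 14 same-number pairs 1 correlated above 0.1 (range -0.27 to 0.10, median -0.064, against 0.012 for 76 other pairs). With that number as a replicate block, 153 genes were higher, 107 lower and 131 differed among groups. No control carries the number 5, 7 or 8, so number and diet are partly confounded in that fit. Of 125 named genes that passed, 31 passed under every alternative in which genes were tested and 94 missed under some. Among the 25 alternatives, plain library totals gave only counts of ranges without overlap. The sign turned for Scd1 with the replicate block (0.55), without the myricetin group (0.037) and without control replicate 1 (0.34, with -0.31 the other end of the range over single libraries), and for Lrfn3 without the quercetin group (0.090). Causes were not tested.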
